A study of Mus musculus with 6 samples.

Results

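The time course of the response to IL-33 was followed in mouse eosinophils by setting the change after 4 h against the change after 1 h, gene by gene. At each time the change was log2((FPKM + 1) of IL-33-treated cells / (FPKM + 1) of untreated cells), and the difference of changes was the value at 4 h minus the value at 1 h. FPKM is a read count scaled by transcript length and library size, and the added 1 makes this scale understate the change of genes with low values. Of 22548 gene symbols in the tables, 11025 had an FPKM of at least 1 in any of the 4 libraries and were compared. A gene was called higher or lower at a time when its change was at least 1 in size (a doubling on this scale), and 748 genes met that rule at 1 h, at 4 h or at both. These sorted into genes higher early only (101), higher at both times (146), higher late only (295), lower early only (49), lower at both times (15) and lower late only (131), with 11 genes that went in opposite directions.

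All cells were grown from the low-density bone marrow of BALB/c mice (wild-type, aged 4 to 8 weeks). The culture lasted 14 days, with FLT3 ligand and stem cell factor (each at 100 ng/ml) up to day 4 and 10 ng/ml IL-5 afterwards, so untreated cells also carried that exposure. The 4 groups compared were untreated cells and cells given 10 ng/ml IL-33, each for 1 h and for 4 h, and cells given 10 ng/ml IL-4 for the same times were used only for values set beside them. Each group had 1 library, so no difference could be compared with a spread between replicates, no p-value is given, and every call rests on the rule of size alone. The untreated library of 1 h and that of 4 h are different samples, so the changes at the 2 times share no library.

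IL-33 is an alarmin of the IL-1 family that is released by damaged barrier cells. It binds the receptor ST2, encoded by Il1rl1, and through MyD88 and IRAK kinases it activates NF-kB and the MAP kinases. Responses of this kind are usually described in waves, with primary genes that are transcribed from factors already in the cell, feedback inhibitors among them, and later genes that need newly made proteins or chromatin changes.

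At 1 h large changes included those of the NF-kB regulator Nfkbiz, of the cytokine and chemokine genes Cxcl2, Tnf and Il6, and of the activation marker Cd69. By 4 h Nfkbiz, other inhibitors of the pathway and many immediate early genes had smaller changes, Il6, Il13 and Ccl3 had larger ones, and genes that had not met the rule of size at 1 h, among them Ikbke, Pou2f2, Tnfrsf9 and Fas, were now called higher. With the untreated library of the same time as reference, more genes were thus called late than early. This order depended on the reference, with small RNA genes included in the counts given here. With the untreated library of 4 h at both times, 307 genes were higher early only and 254 late only. In that setting 197 were lower early only and 94 late only. With the untreated library of 1 h at both times the order was kept. There 117 genes were higher early only and 300 late only, and 40 were lower early only and 215 late only.

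The sort gave 0.916% of the genes compared as higher early only, 1.32% as higher at both times and 2.68% as higher late only, against 0.444% lower early only, 0.136% lower at both times and 1.19% lower late only. A difference of changes of at least 1 was found for 305 genes (2.77%), and one of at most -1 for 204 genes (1.85%). Small RNA genes (microRNA, snoRNA and similar short transcripts) made up 185 of the genes compared and 27, 13, 32, 26, 8 and 24 of the 6 classes in the order given. Without them the classes held 74, 133, 263, 23, 7 and 107 genes, and the class medians and class sizes below are over these. The shares of the classes among all genes compared and the counts under other settings include small RNA genes. The median change of the 74 genes higher early only was 1.30 at 1 h and 0.48 at 4 h, that of the 133 higher at both times was 1.84 and 2.10, and that of the 263 higher late only was 0.26 and 1.41. The medians over all 10840 genes were -0.01 and -0.03. The counts depend on the reference and the pseudocount. With small RNA genes included, the untreated library of 4 h as reference at both times gave 307 genes higher early only, against 101. A pseudocount of 0.1 in place of 1 gave 293 genes lower late only, against 131.

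**Figure D1:**
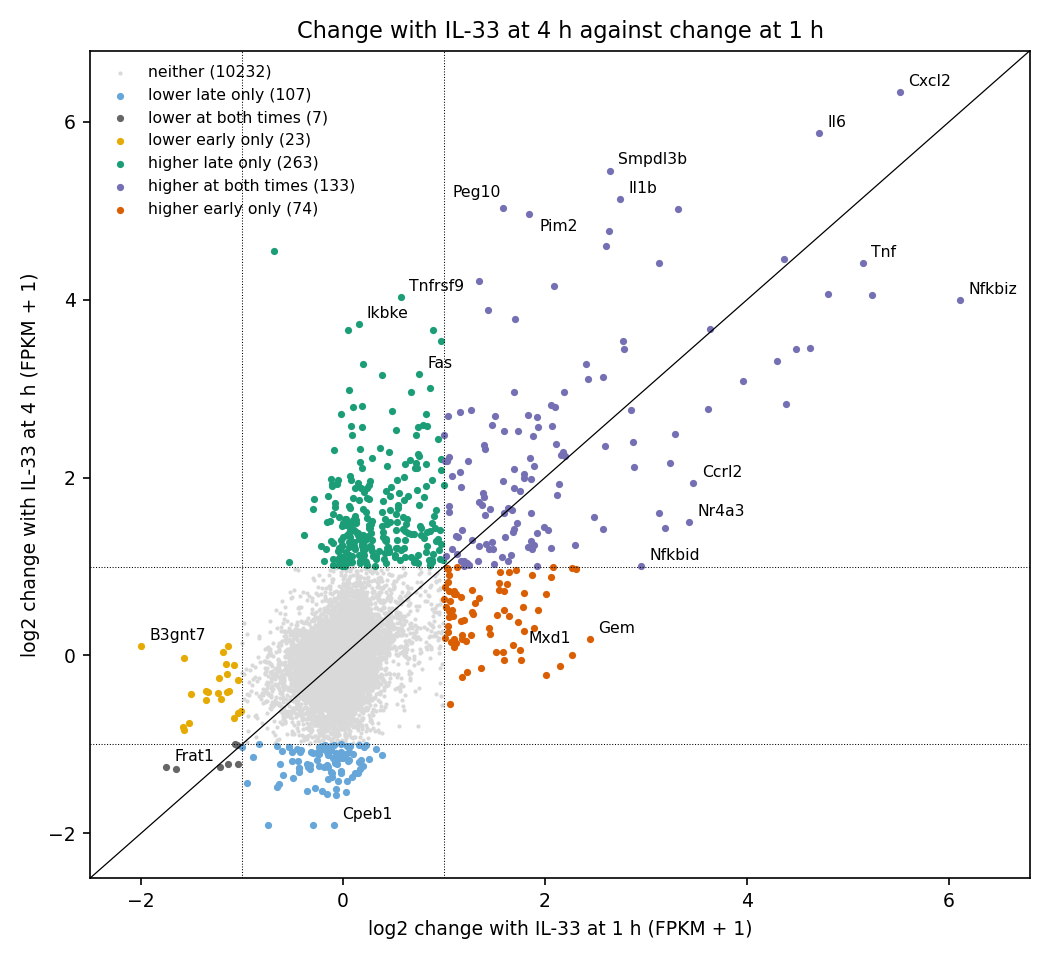
Each point is a gene, with its log2 change with IL-33 at 1 h on the x axis and at 4 h on the y axis (FPKM + 1, 1 library per group), coloured by class, with small RNA genes left out and the class sizes in the legend. Dotted lines mark changes of 1 and -1 and the solid line equal changes, so Nfkbiz and Nfkbid lie to the right of the line and Ikbke and Tnfrsf9 far above it. One gene, LOC100302567, lies outside the axes.

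The classes were cut through a continuous range of values. Gch1 had a change of 1.00 at 1 h and counted as higher early only, whereas Clec4d, just under the limit at 1 h with 0.997, counted as higher late only with 1.92 at 4 h. At 4 h, Sgms2 and Chka lay just inside with 1.00 each, and Gss and Fpr2 just outside with 0.999 and 0.998. Of the 74 genes higher early only, 34 had a difference of at most -1 and 40 differed by less than 1 between the times. Of the 133 higher at both times, 97 differed by less than 1, 23 had a difference of at least 1 and 13 one of at most -1. Of the 263 higher late only, 172 had a difference of at least 1.

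A difference of changes can come from the IL-33-treated cells or from the untreated ones. It equals the 4 h minus 1 h value of treated cells less the same value of untreated cells, each given here relative to its median over all genes compared (0.09 and 0.10 log2). Between untreated cells 76 genes were higher at 4 h by at least 1 (0.689%) and 190 were lower (1.72%), small RNA genes included. The counts that follow leave small RNA genes out. Of the 234 genes with a difference of at least 1, 162 were higher by at least 1 in treated cells at 4 h than at 1 h, 23 were lower by at least 1 in untreated cells, and in 34 the untreated cells moved more than the treated. Of the 143 genes with a difference of at most -1, treated cells were lower by at least 1 at 4 h in 82, and untreated cells moved more in 26. Among the genes higher at both times the untreated cells moved more in 54 of 133. The 2 untreated libraries also differed in heart and skeletal muscle transcripts, which stood at a summed 244 and 238 FPKM in untreated and treated cells of 1 h and at 60.7 and 78.1 at 4 h. Most of the sums of 4 h was Acta1, with 73.7 and 110 FPKM at 1 h and 55.4 and 73.9 at 4 h. The other muscle transcripts thus differed more between the times than the sums show. Myh6, the cardiac myosin heavy chain, was at 14.5 and 11.6 FPKM at 1 h and listed at 0 in both libraries of 4 h. None of the 16 muscle genes compared was called at either time, and the part of such RNA in the difference between times was not tested. In bulk samples, fewer cells of a type and less RNA per cell cannot be told apart.

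**Figure D2:**
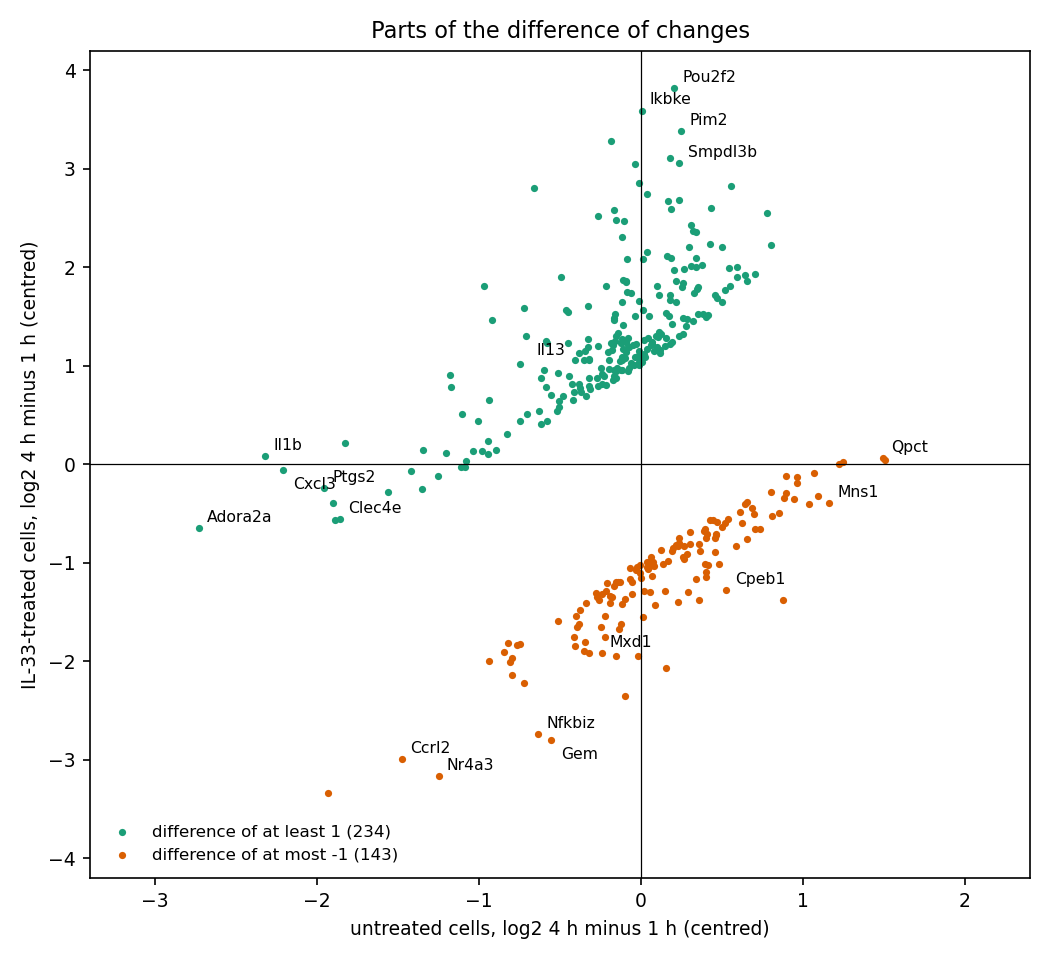
Each point is a gene with a difference of changes of at least 1 (234, green) or at most -1 (143, orange), small RNA genes left out. The x axis is the log2 value of untreated cells at 4 h minus 1 h and the y axis that of IL-33-treated cells, both on FPKM + 1 and centred on the median. Ikbke and Pou2f2 lie near 0 on the x axis and high on the y axis, whereas Il1b, Cxcl3 and Adora2a lie near or below 0 on the y axis and far to the left. LOC100302567 and Pisd-ps1 lie outside the axes.

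NF-kB binds a short sequence, the kB site, in the promoters of many of its targets, and the promoters of 5 genes with different timing are printed to show where such a sequence stands. Rel was higher early only, Nfkbie was higher at both times with a smaller change at 4 h, Cxcl2 and Il6 had among the largest changes at both times, and Ikbke was higher late only. Each stretch runs 5′ to 3′ from 250 bases before to 50 bases after the gene's start in RefSeq (build GRCm38.p6), and capitals mark matches to the NF-kB consensus. Their positions are Rel chr11:23770920-23771219 (minus strand), Nfkbie chr17:45555450-45555749 (plus strand), Cxcl2 chr5:90903649-90903948 (plus strand), Il6 chr5:30012864-30013163 (plus strand), Ikbke chr1:131279514-131279813 (minus strand).
Rel promoter: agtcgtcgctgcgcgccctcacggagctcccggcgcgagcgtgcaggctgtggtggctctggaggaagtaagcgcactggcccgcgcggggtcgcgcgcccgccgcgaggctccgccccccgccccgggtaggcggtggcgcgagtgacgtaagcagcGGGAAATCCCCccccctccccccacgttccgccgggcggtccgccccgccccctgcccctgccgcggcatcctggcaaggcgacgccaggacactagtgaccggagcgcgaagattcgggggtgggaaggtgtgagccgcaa
Nfkbie promoter: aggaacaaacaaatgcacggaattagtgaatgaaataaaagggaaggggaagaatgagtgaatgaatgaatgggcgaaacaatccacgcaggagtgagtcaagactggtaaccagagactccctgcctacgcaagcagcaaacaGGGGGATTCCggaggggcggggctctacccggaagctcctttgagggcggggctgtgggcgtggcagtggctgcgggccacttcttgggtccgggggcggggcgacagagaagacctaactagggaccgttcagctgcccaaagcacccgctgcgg
Cxcl2 promoter: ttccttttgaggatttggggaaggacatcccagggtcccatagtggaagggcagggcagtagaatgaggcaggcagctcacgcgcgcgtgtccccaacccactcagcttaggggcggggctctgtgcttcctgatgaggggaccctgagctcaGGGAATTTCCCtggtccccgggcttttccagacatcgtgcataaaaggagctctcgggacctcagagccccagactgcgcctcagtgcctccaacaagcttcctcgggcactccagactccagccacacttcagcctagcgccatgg
Il6 promoter: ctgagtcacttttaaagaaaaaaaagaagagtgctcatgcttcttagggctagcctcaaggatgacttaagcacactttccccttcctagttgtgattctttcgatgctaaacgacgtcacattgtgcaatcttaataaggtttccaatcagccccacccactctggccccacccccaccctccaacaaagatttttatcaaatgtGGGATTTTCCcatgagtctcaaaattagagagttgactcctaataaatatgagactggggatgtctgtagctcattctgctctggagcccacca
Ikbke promoter: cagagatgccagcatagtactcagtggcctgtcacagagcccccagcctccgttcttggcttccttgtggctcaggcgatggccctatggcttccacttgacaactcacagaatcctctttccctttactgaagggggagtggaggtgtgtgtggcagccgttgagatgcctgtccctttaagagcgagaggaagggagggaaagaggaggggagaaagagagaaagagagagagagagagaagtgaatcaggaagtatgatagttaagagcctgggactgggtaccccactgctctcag

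With positions counted from the start, the Rel match GGGAAATCCC began at -92 and an overlapping match, GGAAATCCCC, at -91. Nfkbie held GGGGGATTCC at -106, Cxcl2 held GGGAATTTCC at -97 with an overlapping match at -96, and Il6 held GGGATTTTCC at -44, each as it reads on the gene's strand. Ikbke, Tnfrsf9, Pim2, Tnf, Il13, Mxd1 and Nfkbid had no match in this window, which says only that these letters are not in it. Only the first listed start of each gene was searched, and Tnfrsf9 has 2 listed starts and Nfkbid 3. The consensus was searched on both strands, and matches could overlap. With 1 start per gene, it was present in 13 of the 67 promoters found for the 74 genes higher early only (19.4%). It was in 10.2% of the 8744 found for all genes compared. Over all 32851 promoters in the RefSeq table, which count every listed start, it was in 8.46%. Among the 34 genes higher early only with a difference of at most -1, it was in 4 of the 28 promoters found (14.3%). Promoters were found for fewer than 80% of the genes higher at both times and of those higher late only, so no share is given for them. Other motifs searched in the same 67 promoters on both strands were TGANTCA, bound by AP-1 (5.97%, against 5.08% of all genes compared and 7.81% of all promoters), and TGACGTCA, bound by CREB (7.46%, against 3.41% and 1.79%).

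Gem, Sec24a and Rab11fip1 had the lowest differences among the genes higher early only that were named. Gem, a small GTPase that is induced on cell activation (mm9 chr4:11631594-11642140), stood at 0.742 FPKM in untreated and 8.46 in IL-33-treated cells of 1 h, and at 0.266 and 0.439 at 4 h. Its change went from 2.44 to 0.18, a difference of -2.26 with a counting error of 0.19 (the error that the number of reads alone would give). Sec24a, a coat subunit of vesicles that leave the endoplasmic reticulum, stood at 3.04 and 15.3 FPKM at 1 h and at 3.81 and 3.11 at 4 h (difference -2.23). Rab11fip1, an effector of recycling endosomes, stood at 16.1 and 57.2 FPKM at 1 h and at 15.5 and 15.0 at 4 h (difference -1.81). In these genes the treated library of 1 h stood apart from the other 3, which lay close together for Sec24a and Rab11fip1.

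Mxd1, a repressor that competes with MYC for its partner MAX (mm9 chr6:86597039-86619153), was the most abundant of the leading early genes. It stood at 158 FPKM in untreated and 536 in treated cells of 1 h, and at 143 and 149 at 4 h (changes 1.76 and 0.07, counting error of the difference 0.02). Maff, a small MAF transcription factor, stood at 4.83 and 19.2 FPKM at 1 h and at 2.78 and 3.59 at 4 h (difference -1.51). Ifrd1, a transcriptional co-regulator, had a difference of -1.56 (22.0 and 72.6 FPKM at 1 h, 18.2 and 19.9 at 4 h). Extl2, Fam46c, Prkab2 and Tgif2, the others of the 10 leading genes, had differences of -1.64, -1.61, -1.58 and -1.55. Fam46c was the one of these 10 with the lowest change at 4 h, at -0.55 (38.6 FPKM untreated, 26.1 treated).

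Of 31 immediate early genes compared, 7 were higher early only, 8 at both times and 3 late only, and none was lower. Over all genes compared these 3 classes held 0.916%, 1.32% and 2.68%. Those shares also stand beside the counts of the lists that follow, and no list was tested. The median change of the 31 genes was 0.98 at 1 h and 0.46 at 4 h, against -0.01 and -0.03 for all genes. Junb, a subunit of AP-1, stood at 61.9 and 252 FPKM at 1 h and at 61.2 and 99.1 at 4 h, with the untreated libraries level (changes 2.01 and 0.69). Fosl1, another AP-1 subunit, stood at 3.53 and 16.3 FPKM at 1 h and at 0.272 and 0.817 at 4 h, so both the untreated and the treated library of 4 h were lower than their partners of 1 h. Egr3, a zinc finger factor, stood at 71.5 and 263 FPKM at 1 h and at only 3.21 and 9.27 at 4 h. Its changes, 1.86 and 1.29, put it among the genes higher at both times although its treated level at 4 h was below its untreated level at 1 h. Nr4a1, an orphan nuclear receptor, had a like pattern, with 30.5 and 143 FPKM at 1 h, 5.64 and 30.5 at 4 h, and changes of 2.19 and 2.24. Its relative Nr4a3 stood at 2.03 and 31.6 FPKM at 1 h and at 0.362 and 2.86 at 4 h (change 3.43 at 1 h, difference -1.93). Egr2 differed from these, since its treated level was nearly kept, at 31.3 FPKM at 1 h and 25.1 at 4 h, over untreated levels of 12.4 and 2.84.

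**Figure D3:**
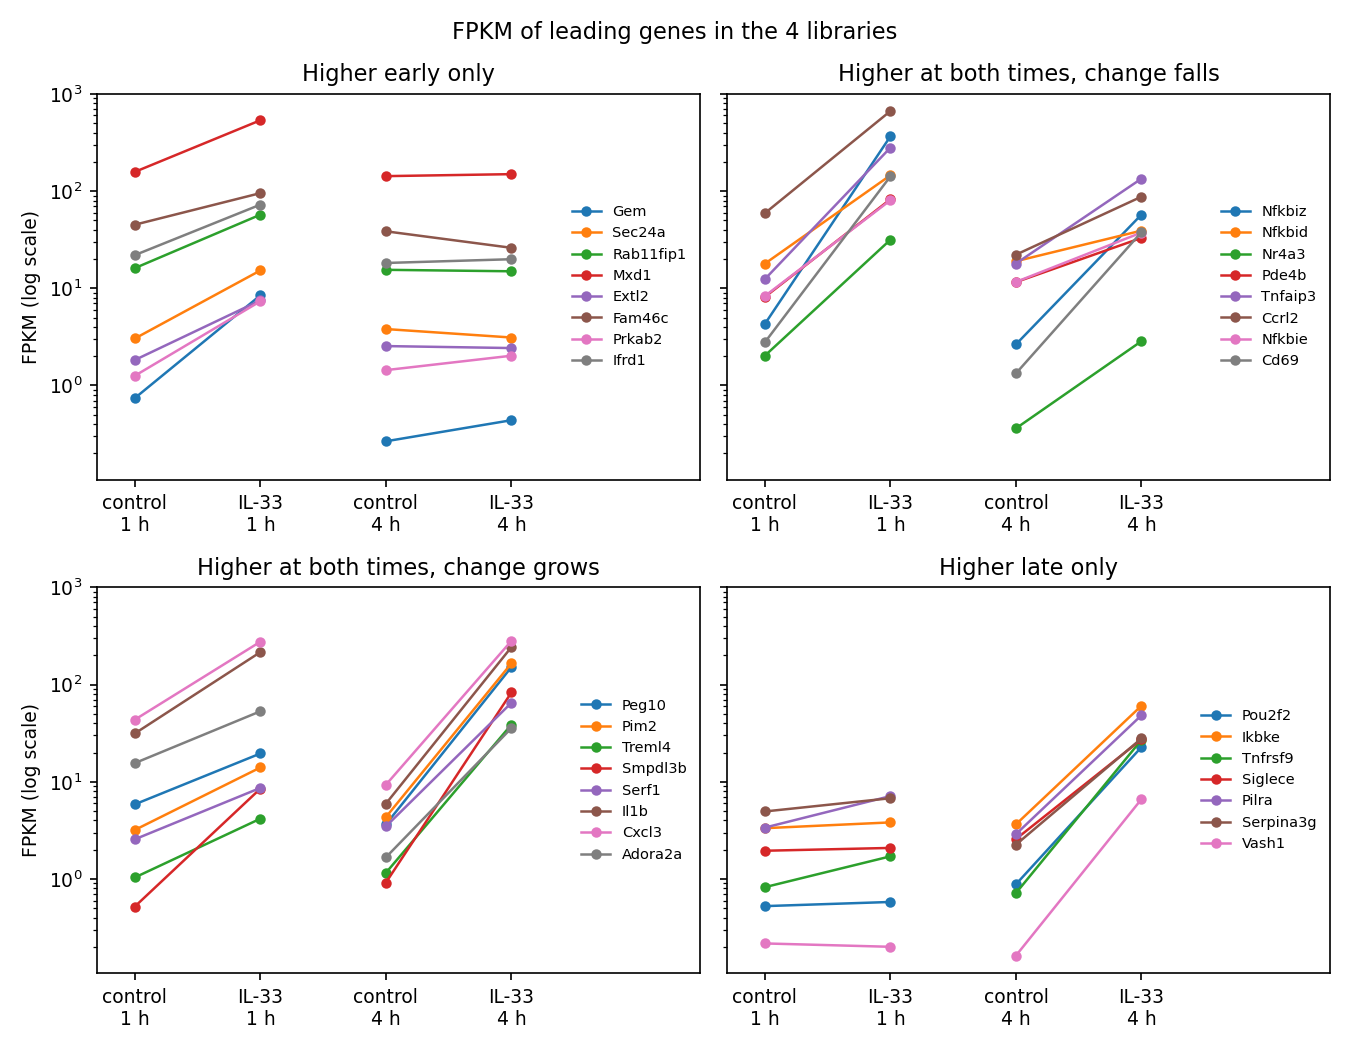
FPKM on a log axis in the untreated (control) and IL-33-treated libraries of 1 h and 4 h, 1 library each, for leading genes (at most 8) of 4 rankings. Lines join the pair of libraries of 1 time. The genes higher early only have log2 changes (FPKM + 1) of at most 0.31 at 4 h, those higher late only have changes of at most 0.89 at 1 h, and Il1b, Cxcl3 and Adora2a start lower in the control of 4 h.

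The NF-kB system itself was spread over all 3 classes. Of 16 subunits, inhibitors and kinases compared, 2 were higher early only, 7 at both times and 2 late only, none was lower, and the medians were 1.67 at 1 h and 1.21 at 4 h. Among the subunits, Rel (c-Rel) was early, with 12.2 and 44.6 FPKM at 1 h and 7.41 and 12.7 at 4 h (changes 1.79 and 0.70). Nfkb1 (p105/p50) was late, with 44.8 and 47.1 FPKM at 1 h and 44.0 and 119 at 4 h (changes 0.07 and 1.41). Nfkb2 (p100/p52) stood at 15.1 and 116 FPKM at 1 h and at 16.7 and 119 at 4 h, and Relb at 9.27 and 54.3 and at 7.58 and 73.0, so both were kept at the later time.

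The inhibitors of the IkB family had their larger changes at 1 h, except for Bcl3. Nfkbiz, the nuclear regulator IkB-zeta, had the largest change of any gene at 1 h apart from small RNA genes, with 4.30 and 366 FPKM, and stood at 2.65 and 57.3 at 4 h (changes 6.11 and 4.00, difference -2.11 with a counting error of 0.11). Nfkbid, the nuclear regulator IkB-NS (mm9 chr7:31208323-31213765), stood at 17.9 and 145 FPKM at 1 h and at 19.0 and 39.2 at 4 h (changes 2.95 and 1.01). Nfkbie, the cytoplasmic inhibitor IkB-epsilon, had changes of 3.13 and 1.61, and Nfkbia, IkB-alpha, of 3.96 and 3.09 with treated levels of 1083 and 587 FPKM. Bcl3, a nuclear co-activator of p50 and p52, went the other way with changes of 2.77 and 3.54. Ikbke, a kinase of the IKK family (mm9 chr1:133151179-133176140), stood at 3.33 and 3.82 FPKM at 1 h and at 3.65 and 60.6 at 4 h, a difference of 3.57 with a counting error of 0.13. Only its treated library of 4 h stood apart.

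Of 17 ubiquitin and mRNA-decay brakes compared, which limit the pathway downstream of the receptor or degrade its target mRNAs, 6 were higher at both times, 3 late only and none early only, and 8 were not called. Tnfaip3, the ubiquitin-editing enzyme A20, stood at 12.4 and 280.2 FPKM at 1 h and at 18.0 and 134 at 4 h (changes 4.39 and 2.83). Zc3h12a, the ribonuclease regnase-1, which degrades cytokine mRNAs, had changes of 4.49 and 3.45. Irak3 (IRAK-M), which blocks signalling from the IL-1 receptor family, stood at 23.4 and 42.2 FPKM at 1 h and at 28.7 and 194 at 4 h (changes 0.83 and 2.72). The A20-binding proteins Tnip1 and Tnip3 were also late, with changes of 0.62 and 2.15 and of 0.97 and 2.21. Among 15 genes of the SOCS, CISH and PIM list, 1 was higher early only, 4 at both times and 2 late only. The PIM kinases differed from each other: Pim1 had changes of 2.30 and 0.97 (treated levels of 324 and 117 FPKM), whereas Pim2 (mm9 chrX:7455432-7460558) stood at 3.19 and 14.0 FPKM at 1 h and at 4.33 and 165 at 4 h (changes 1.84 and 4.96). Of 11 MAP kinase phosphatases and sprouty-type inhibitors, 2 were higher early only (Dusp2, with changes of 2.06 and 0.88, and Dusp8, with 1.44 and 0.31), 1 at both times and 2 late only (Dusp5, with -0.04 and 1.56, and Spred1, with 0.53 and 1.21). Dusp5 stood at 76.8 and 74.6 FPKM at 1 h and at 37.8 and 113 at 4 h, so its untreated level was also lower at 4 h.

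Of 21 cytokine genes compared, 7 were higher at both times, 2 late only and none early only, and 12 were not called, with medians of 0.57 and 0.71. Il6 stood at 7.31 and 216 FPKM at 1 h and at 4.75 and 336 at 4 h, and Tnf at 8.59 and 339 and at 7.35 and 177. The treated level of Il6 was thus higher at 4 h and that of Tnf lower (differences 1.16 and -0.74). Il13, a cytokine of type 2 immunity (mm9 chr11:53444825-53448204), stood at 2.01 and 17.3 FPKM at 1 h and at 0.971 and 46.8 at 4 h (changes 2.60 and 4.60, difference 2.00 with a counting error of 0.23). Csf2, which encodes GM-CSF, stood at 0.054 and 0.747 FPKM at 1 h and was listed at 0 in untreated cells of 4 h against 3.30 with IL-33, so no fold is given for that time. Ebi3, a subunit of IL-27 and IL-35, was late (98.4 and 129.6 FPKM at 1 h, 99.7 and 336 at 4 h).

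For Il1b (mm9 chr2:129190316-129201469) the larger change at 4 h came with a lower untreated level. Untreated cells stood at 31.4 FPKM at 1 h and 5.95 at 4 h, and treated cells at 216 and 243, so the treated values differed by 0.17 log2 (not centred, as in the values between times that follow) while the changes were 2.74 and 5.13. The chemokine gene Cxcl3 (43.6 and 276 FPKM at 1 h, 9.32 and 282 at 4 h), Ptgs2, which encodes the prostaglandin synthase COX-2 (4.19 and 50.7, 0.432 and 45.4), and the lectin receptor gene Clec4e (68.1 and 603, 19.4 and 434) did likewise. The adenosine receptor gene Adora2a stood at 15.6 and 53.1 FPKM at 1 h and at 1.67 and 35.7 at 4 h, so its change was larger at 4 h by 2.07 although its treated level was lower. In these 5 genes the untreated library of 4 h was the lowest of the 4 libraries. With 1 untreated library used at both times, Cxcl3, Ptgs2, Clec4e and Adora2a had differences below 0 (for Cxcl3, -0.079 against the library of 1 h and -0.070 against that of 4 h). Irg1, which makes the metabolite itaconate, was measured at 25.9 and 551 FPKM at 1 h and at 6.07 and 155 at 4 h, so its near-equal changes, 4.36 and 4.46, lay over treated levels that differed by -1.83 log2.

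Of 24 chemokine genes compared, 7 were higher at both times, 7 late only and 1 early only, with medians of 0.59 at 1 h and 1.31 at 4 h. Cxcl2, a neutrophil attractant, stood at 14.3 and 699.5 FPKM at 1 h and at 5.39 and 516 at 4 h (changes 5.51 and 6.34, the latter the largest of any gene at 4 h apart from small RNA genes). Its larger change at 4 h came with a lower untreated level, since between the times its treated libraries differed by -0.44 log2 and its untreated ones by -1.26, and with 1 untreated library used at both times its difference was below 0. Ccl3, which attracts monocytes and lymphocytes, was the most abundant chemokine named here in treated cells of 4 h, with 335 and 1423 FPKM at 1 h and 158 and 2827 at 4 h. Its close relative Ccl4 was lower at 4 h in both libraries (132 and 505 FPKM at 1 h, 26.9 and 178 at 4 h). Cxcl10 had its larger change at 1 h (4.62, against 3.46 at 4 h). Ccl20 was listed at 0 in both untreated libraries and stood at 3.83 FPKM in treated cells of 1 h and 0.978 at 4 h. Among the late ones, Ccl5 stood at 15.2 and 21.4 FPKM at 1 h and at 15.3 and 55.3 at 4 h, and Ccl24, which encodes an eotaxin, at 0.372 and 0.499 and at 0.392 and 2.64.

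Of 45 cytokine and chemokine receptor genes compared, 35 were not called at either time, against 93.2% of all genes compared (small RNA genes included). The others were 6 higher late only, 2 at both times, 1 early only and 1 lower late only. Medians of the list were 0.12 and 0.09, and no test was made of it. Tnfrsf9, the co-stimulatory receptor 4-1BB (mm9 chr4:150294264-150320211), stood at 0.823 and 1.71 FPKM at 1 h and at 0.715 and 27.0 at 4 h, a difference of 3.46 with a counting error of 0.20. The death receptor gene Fas stood at 15.4 and 26.6 FPKM at 1 h and at 15.2 and 144 at 4 h. Il2rg, the common gamma chain of the receptors for IL-2, IL-4 and other cytokines, stood at 55.3 and 88.0 FPKM at 1 h and at 38.8 and 182 at 4 h. Ccrl2, a chemerin-binding receptor, went from a change of 3.47 to one of 1.94, with treated levels of 666 and 87.6 FPKM. Il1rl1, the gene of the IL-33 receptor, stood at 52.7 and 44.2 FPKM at 1 h and at 63.9 and 103 at 4 h, so its change was -0.25 and then 0.68, below the rule at both times. Il4ra had changes of 0.20 and 0.57.

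The largest late changes outside these lists were of many kinds. Pou2f2, the transcription factor OCT2 (mm9 chr7:25876134-25917479), had the largest difference among the late genes named, with 0.525 and 0.58 FPKM at 1 h and 0.882 and 22.7 at 4 h (changes 0.05 and 3.66, difference 3.61 with a counting error of 0.13). Siglece, an inhibitory sialic acid receptor, stood at 1.95 and 2.09 FPKM at 1 h and at 2.57 and 27.3 at 4 h. In both genes the treated library of 4 h alone stood apart. Pilra, Serpina3g, Vash1, Ppfibp2 and Itsn1, also among the leading 10, had differences of 2.77, 2.77, 2.73, 2.70 and 2.62. Batf, an AP-1 family factor of lymphoid and myeloid cells that the naming rule did not select and that was chosen after its values were seen, stood at 17.4 and 18.5 FPKM at 1 h and at 23.2 and 94.2 at 4 h.

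Among genes higher at both times, Peg10, Pim2, Treml4, Smpdl3b and Serf1 had the largest differences, from 3.45 for Peg10 to 2.44 for Serf1. Smpdl3b, a membrane-bound phosphodiesterase that dampens Toll-like receptor signals (mm9 chr4:132288881-132313086), stood at 0.521 and 8.50 FPKM at 1 h and at 0.918 and 83.0 at 4 h. Between the times the untreated libraries differed by values from -0.56 for Peg10 to 0.35 for Pim2, on the log2 scale and not centred. Ralgds, an exchange factor for the GTPase RAL, had nearly equal changes of 3.63 and 3.67, and Cdc42ep2, a CDC42 effector, had changes of 4.81 and 4.07. Of 52 adhesion, activation and lectin receptor genes compared, 11 were higher at both times and 13 late only, with medians of 0.37 and 0.92. The activation marker Cd69 had changes of 5.24 and 4.06 (treated levels of 142 and 37.8 FPKM), Icam1 of 3.61 and 2.77, and Treml4, a receptor that binds dead cells, of 1.34 and 4.21, while Cd48 was late with 0.06 and 1.68.

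Survival and death genes were spread over the classes, with 3 of 31 compared higher early only, 9 at both times and 5 late only (medians 0.57 and 0.87). Within the BCL2 family the timing differed by gene. Mcl1, an inhibitor of apoptosis, stood at 187 and 394 FPKM at 1 h and at 205 and 227 at 4 h, and Bcl2l11, which encodes the pro-apoptotic BIM, at 35.2 and 152 and at 29.7 and 60.1. Both were called higher early only. The Bcl2a1 genes were higher at both times (Bcl2a1d, with changes of 2.06 and 2.81), and their near-identical copies share reads, so the values of single copies are uncertain. Bcl2l1, which encodes the inhibitor BCL-XL, was late, with 10.7 and 10.1 FPKM at 1 h and 13.4 and 44.9 at 4 h, as was the pro-apoptotic Bmf (changes -0.08 and 2.31).

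Of 29 genes compared that are known to respond to IL-4 through STAT6, 11 were higher late only, 4 at both times and none early only, with medians of 0.19 and 1.02. Among all genes compared the late class was also larger than the early one (2.68% against 0.916%), and no test was made of the list. Arg1, the enzyme arginase 1, stood at 1.23 and 1.73 FPKM at 1 h and at 1.24 and 9.43 at 4 h. Its changes with IL-33 were 0.29 and 2.22, and those with IL-4, which share the untreated libraries, were 0.45 and 2.32. For Batf3, a transcription factor of dendritic cells, the changes were 0.19 and 2.11 with IL-33 and 0.13 and 1.11 with IL-4. Tcfec, a relative of MITF, had -0.29 and 1.76 with IL-33 and -0.03 and 1.63 with IL-4. Socs1, an inhibitor of JAK kinases, had 0.60 and 2.00 with IL-33 and 2.33 and 2.13 with IL-4, so its value with IL-4 was already as large at 1 h. Cish, a target of STAT5, had 3.29 and 2.49 with IL-33 and 1.27 and 0.62 with IL-4. Il4 itself was not called, with 75.8 and 103 FPKM at 1 h and 82.8 and 104 at 4 h (changes 0.44 and 0.33).

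A number of genes of the thioredoxin, glutathione and antioxidant system were called late. This list of 30 genes was drawn up after the values had been seen, and so it supports no statement about the group. Of the 30, 10 were higher late only, 1 at both times and none early only or lower, with medians of 0.06 and 0.84. Hmox1, the haem-degrading enzyme haem oxygenase 1 (mm9 chr8:77617517-77624492), stood at 79.4 and 127 FPKM at 1 h and at 51.1 and 406 at 4 h (changes 0.67 and 2.96). Txnrd1, thioredoxin reductase, stood at 74.6 and 133 FPKM at 1 h and at 47.2 and 287 at 4 h, and Gclm, a subunit of the enzyme that starts glutathione synthesis, at 77.7 and 74.3 and at 60.5 and 233. Fth1, the heavy chain of the iron store ferritin, reached 39117 FPKM in treated cells of 4 h, from 11304 in untreated cells. Srxn1, sulfiredoxin, stood at 67.8 and 131 FPKM at 1 h and at 27.9 and 155 at 4 h, and its untreated libraries differed by -1.25 between the times, against a difference of changes of 1.49. Nfe2l2, which encodes NRF2, the transcription factor of many of these genes, had changes of 0.92 and 0.83.

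**Figure D4:**
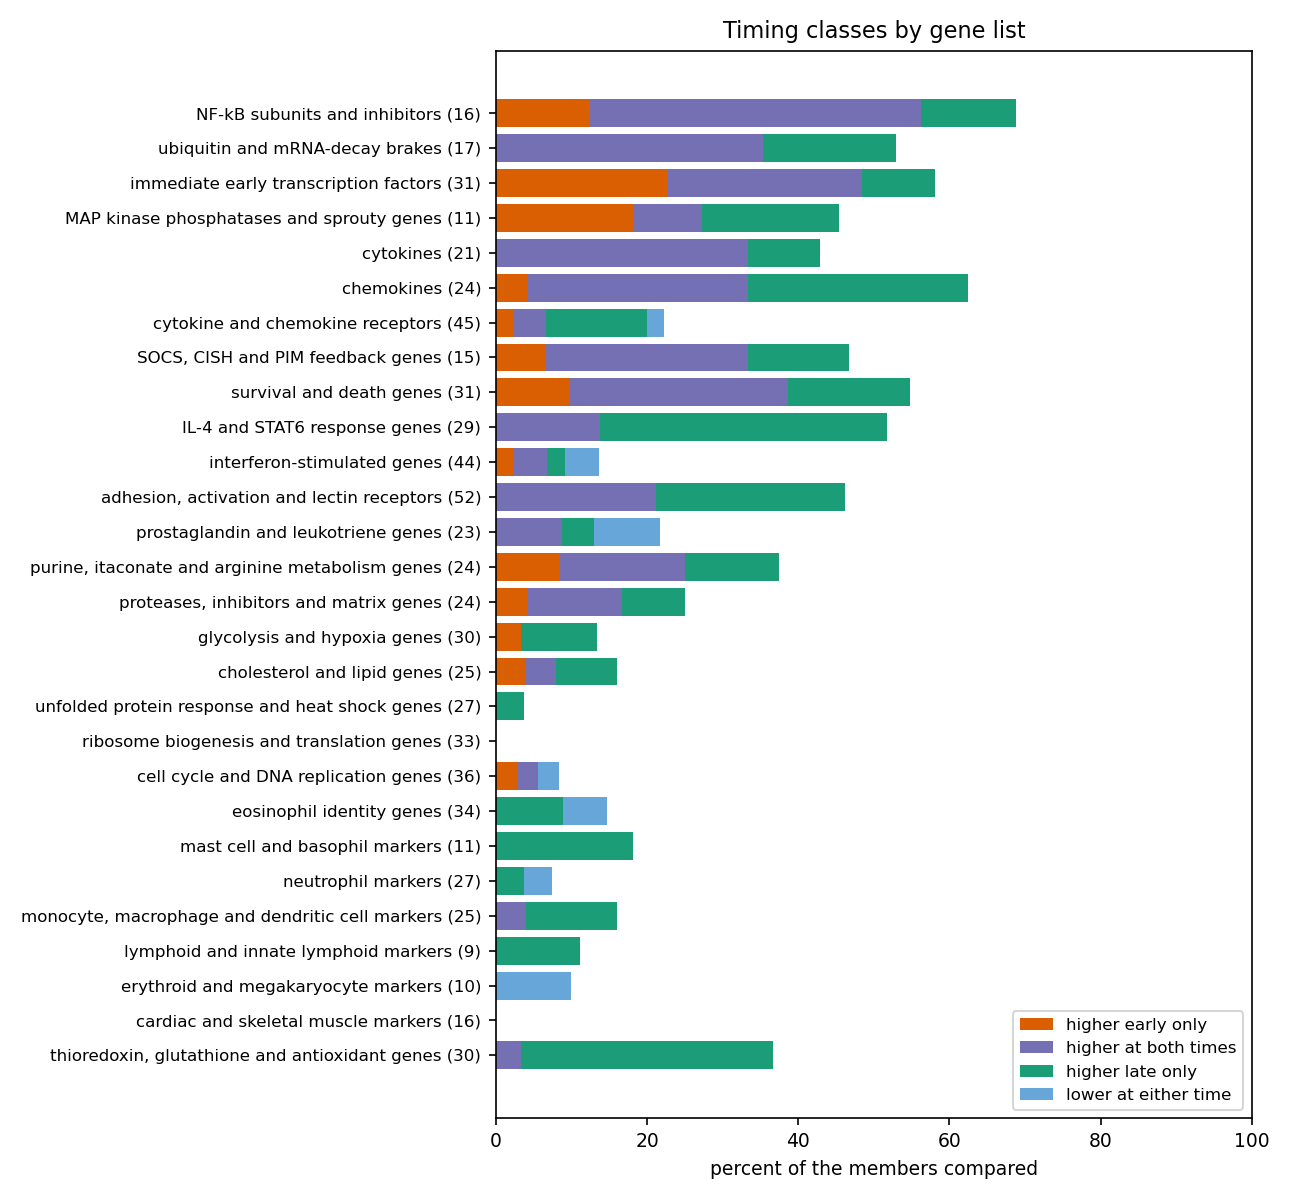
Bars give the percent of the compared members of each gene list (number in brackets) that were higher early only, higher at both times, higher late only or lower at either time. Over all genes compared the 3 higher classes held 0.916%, 1.32% and 2.68% in this order. The early class is widest in the immediate early genes (7 of 31), and the late class makes up most of the bar in the STAT6 response list (11 of 29) and in the antioxidant list (10 of 30), the latter drawn up after the values were seen.

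Lower genes were fewer. B3gnt7, a glycosyltransferase (mm9 chr1:88199796-88203880), was lower early only, with 7.98 FPKM untreated and 1.25 treated at 1 h and 10.9 and 11.8 at 4 h (difference 2.11). Lpar6, a receptor for lysophosphatidic acid, stood at 38.4 and 12.3 FPKM at 1 h and at 41.5 and 40.6 at 4 h. Usp18, the protease that removes ISG15 and restrains interferon signalling, stood at 44.9 and 19.9 FPKM and at 47.0 and 50.6. In these 3 genes the treated library of 1 h was the lowest of the 4 and the other 3 lay closer together. Tuba8 had changes of -1.18 and 0.04. Ahr, the aryl hydrocarbon receptor, had changes of -1.51 and -0.44, and its treated libraries were level (10.6 and 11.0 FPKM) under untreated levels of 31.8 and 15.3.

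Among genes lower late only the untreated cells moved more than the treated in 46 of 107. Cpeb1, a regulator of poly(A) tails (mm9 chr7:88492329-88599562), stood at 10.4 and 9.69 FPKM at 1 h and at 16.6 and 3.68 at 4 h (changes -0.09 and -1.91). Fbxo31, a ubiquitin ligase subunit, stood at 8.74 and 6.93 FPKM and at 11.7 and 2.41. Mns1 (9.21 and 9.45 FPKM at 1 h, 23.4 and 7.42 at 4 h) and the lysosomal sulfatase gene Sgsh (8.66 and 9.30, 20.2 and 7.24) differed from these, since the untreated library of 4 h was the high one. The genes lower at both times included Frat1 and Frat2, neighbouring inhibitors of the kinase GSK3 (mm9 chr19:41904460-41907073 and chr19:41920465-41922622). Frat1 stood at 9.20 and 2.02 FPKM at 1 h and at 10.5 and 3.81 at 4 h, and Frat2 at 17.6 and 4.91 and at 19.4 and 7.41. Tob1, an anti-proliferative protein that recruits deadenylases, had changes of -1.22 and -1.25, with every library of 4 h above its partner of 1 h (22.0 and 8.91 FPKM, then 51.0 and 20.8).

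Transcripts of the classes differed in features that the sort did not use. The 3′ UTR held the AU-rich heptamer TATTTAT, a core of elements that shorten mRNA life, in 36 of 73 genes higher early only (49.3%), in 35.9% of those higher at both times, in 27.7% of those higher late only and in 26.9% of all genes compared. Genes lower early only also held it often, in 10 of 22 (45.5%), and those lower late only in 24.0%. Longer UTRs hold more chance matches, and the medians were 1250, 848 and 890 bases in the 3 higher classes and 927 in all genes. Among UTRs of 500 to 2000 bases the shares were 52.5%, 41.7%, 27.1% and 26.6% in the same order, and 62.5% of the 8 such UTRs of genes lower early only. Genes higher early only had a median of 5 exons and those higher at both times 6, against 8 for those higher late only and 9 for all. The transcribed span had medians of 14700, 10600, 20800 and 19600 bases for these 4 sets. These are descriptions of the genes sorted, with no test.

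**Figure D5:**
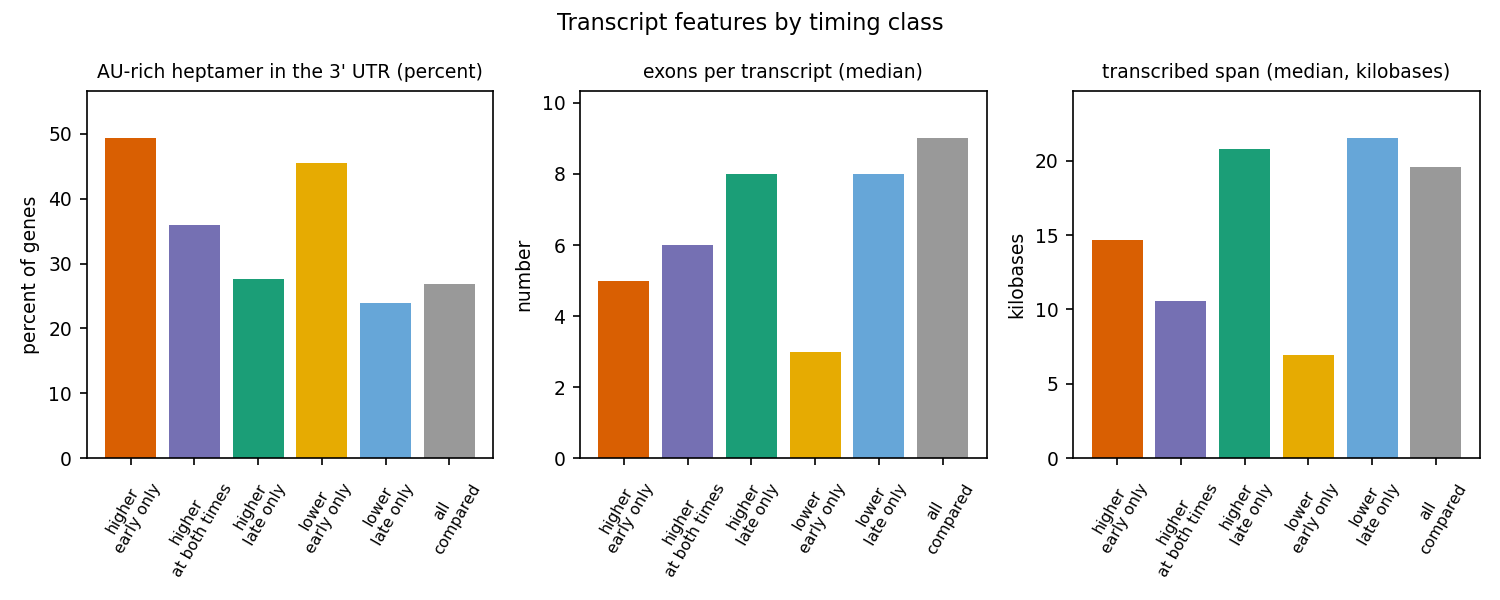
Bars give, for 5 classes and for all genes compared, the percent of genes with the AU-rich heptamer in the 3′ UTR, the median number of exons and the median transcribed span in kilobases (small RNA genes left out). The heptamer is most frequent in the genes higher early only (49.3%) and lower early only (45.5%), against 26.9% of all genes, and the genes higher early only or at both times have fewer exons than those higher late only. The 23 genes lower early only have the fewest exons, and the 7 genes lower at both times are not drawn.

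The libraries carried the defining transcripts of eosinophils, with Prg2, the granule major basic protein, at 5.49% to 6.48% of total FPKM. Depth relative to the untreated library of the same time, read from the steps between low values, was 1.16 for IL-33 at 1 h and 1.89 at 4 h, and 1 read in a transcript of 2000 bases was worth 0.0176 to 0.033 FPKM. Of 34 eosinophil genes compared, 3 were higher late only and 2 lower late only, with medians of -0.01 and -0.07. Neutrophil markers (27 compared, 1 higher and 1 lower late only) summed to 9204 and 9710 FPKM in untreated and treated cells of 1 h and to 10170 and 7918 at 4 h, with medians of 0.07 and -0.24. Monocyte, macrophage and dendritic cell markers (25 compared, 1 higher at both times and 3 late only) summed to 3904 and 4011 FPKM and to 2722 and 3303. Mast cell and basophil markers (11 compared) summed to 402 and 473 FPKM and to 401 and 499.9, and 2 were higher late only, Mitf and Slc18a2, the latter with 6.55 and 9.59 FPKM at 1 h and 10.9 and 78.8 at 4 h. Lymphoid markers (9 compared, 1 higher late only) summed to 36.7 to 40.9 FPKM and erythroid and megakaryocyte markers (10 compared, 1 lower late only) to 308 to 336. The part of these cells in the results was not tested.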

How the data were processed

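RNA of cultured mouse eosinophils was sequenced as single reads, per the labels' protocols. The submitters' processing notes name TopHat 1.4.1, Cuffdiff 1.2.1 and build mm9. Read trimming and the annotation's release are not given in the sources used here. For 28702 transcripts the authors deposited FPKM values, in tables that pair a treated library with the untreated one of the same time and that were normalised separately. The untreated columns of the IL-33 tables were 0.945 (1 h) and 0.947 (4 h) times those of the IL-4 tables, by which IL-4 values were scaled. The authors' deposited test columns compare 2 libraries and were not used.

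Transcripts were summed per symbol (3869 symbols had several transcripts and 232 several loci), and genes with FPKM of at least 1 in any of 4 columns were compared with a pseudocount of 1. An FPKM of 0 can be a failed estimate and is described as listed at 0. The rule for named genes took, among genes with FPKM of at least 5 in the highest library and passing over small RNA genes and predicted symbols, the 10 higher early only with the lowest difference, the 10 higher late only with the highest, and 8 higher at both times by each of highest difference, lowest difference and highest smaller change. It also took 5 genes per lower class, the cytokine, receptor and inhibitor genes Il4, Il13, Il6, Il1b, Tnf, Csf2, Il1rl1, Il4ra, Nfkbia, Nfkbiz and Tnfaip3, and up to 4 members per list with the largest change. One gene that the rule took is not reported here. Other members named beside a list's count were taken from the lists after their values were seen. The members, the 27 gene lists and the tests were chosen with earlier results of these data known. Exons, spans and 3′ UTRs came from the GENCODE annotation of GRCm38, matched by RefSeq accession for 95.1% of transcripts, and promoters from RefSeq. Counting errors were estimated from the reads that low FPKM values imply and cover counting error only. The sort was run on simulated data with shifts well past the limit of 1 and small noise. That checks the computation and says nothing about genes near the limit or about the spread between replicates. Computation used Python 3.11.15, pandas 2.3.3, numpy 2.4.6 and matplotlib 3.10.9.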

Additional observations from a re-analysis of the deposited data

Results flagged for a closer look

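In all, 11 genes counted as changed in opposite directions at the 2 times, and the difference was not tested for any of them. LOC100302567 was higher at 1 h and lower at 4 h (difference of changes -10.53), and Mir1943 (-16.83), Snord32a (-12.72) and Snord33 (-13.51) showed the same order. Mir1938 (9.03), Mir25 (12.44), Mir26b (12.84), Snora41 (10.72), Snora75 (4.58), Snora81 (3.32) and Snord1b (13.93) were lower at 1 h and higher at 4 h. All but LOC100302567 are small RNA genes, and LOC100302567 was listed at 0 in untreated cells of 1 h and in treated cells of 4 h. Its changes were 4.95 and -5.58 with IL-33 and 5.19 and -5.58 with IL-4, which share the untreated libraries. The 11 transcripts are 73 to 178 bases long, and in such short transcripts each read is worth more FPKM than in longer ones.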

How the results depend on the processing

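With 1 library per group, no library could be left out and no error between replicates could be given. No paired analysis was possible because each group has 1 library. Of 146 named genes, 138 had an FPKM of at least 5 in any of the 4 libraries. Filters on low values and leaving out small RNA genes only drop genes, so no class could change under them. The best locus alone could not change a class either, because no named gene lay at several loci. All 146 kept their class without transcripts marked FAIL or LOWDATA, an alternative chosen after seeing the data. A pseudocount of 0.1 kept 134 in class, one of 5 kept 113, a step of 1.5 kept 105, centring on the median kept 142 and the IL-4 reference kept 130. The class counts of this section include small RNA genes unless these are said to be left out. With a pseudocount of 0.1, 96 genes were lower early only, 29 at both times and 293 late only, and 401 had a difference of at most -1. With one of 5, 96 were higher at both times, 7 lower at both times and 53 lower late only, and 193 and 114 had differences of at least 1 and at most -1. With a step of 1.5 on changes and difference, 82 were higher at both times, 163 higher late only, 6 lower at both times and 28 lower late only, with 146 and 79 past the difference. Without small RNA genes, 23 were lower early only and 7 at both times. With the IL-4 library of the same time as reference, 8 were lower at both times.

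With the untreated library of 1 h at both times, 31 genes were lower at both times and 215 late only, and 384 had a difference of at most -1. Of the 131 genes lower late only in the main sort, 37 were among these 215. With the untreated library of 4 h, 307 were higher early only, 197 lower early only and 56 lower at both times, and 378 had a difference of at most -1. In that setting 91 of the 131 stayed lower late only. The untreated library of 1 h kept 118 of the named genes in class and that of 4 h kept 120. By construction the difference then holds the treated libraries alone, and the sign changed for 23 named genes with each library, against 12 with the IL-4 reference, 7 with a pseudocount of 5, 3 with one of 0.1 and none under the other settings. In 14 of them with the library of 1 h and 13 with that of 4 h, a difference was at least 1 in size before or after the change. The values with the library of 1 h and of 4 h were -0.079 and -0.070 for Cxcl3, -0.666 and -0.630 for Adora2a, -1.934 and -1.922 for Irg1, -0.052 and -0.048 for Ahr, and 1.031 and 1.029 for Tob1. They were -0.410 and -0.389 for Egr2, -2.303 and -2.289 for Nr4a1, -1.621 and -1.577 for Dusp16, -0.582 and -0.578 for Clec4e, and -0.245 and -0.187 for Ptgs2. They were -0.306 and -0.305 for Cebpb, -1.467 and -1.414 for Ckm and -2.240 and -2.149 for Pln, and Gzmb had -1.027 with the library of 1 h. Depth limits the low values most in the untreated library of 4 h, the shallower of its pair.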

Other observations

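Lists of metabolic and housekeeping genes varied in how many genes passed the rule of size. Of all genes compared (small RNA genes included) 93.2% were not called at either time, which stands beside the lists of this section. Not called were 26 of the 30 glycolysis and hypoxia genes and 21 of the 25 cholesterol and lipid genes. Of 33 ribosome biogenesis and translation genes compared none was called at either time, with median changes of 0.05 at 1 h and 0.07 at 4 h. Of 30 glycolysis and hypoxia genes, 1 was higher early only (Ddit4, an inhibitor of mTORC1, with changes of 1.28 and 0.49) and 3 late only, among them Hif1a (0.94 and 1.31) and Ero1l (0.42 and 1.53), with medians of -0.03 and -0.04. Hif1a stood at 69.6 and 134 FPKM at 1 h and at 45.6 and 114 at 4 h, so its treated level was not higher at 4 h. Of 27 unfolded protein response and heat shock genes 1 was higher late only, and it was Hmox1. Of 25 cholesterol and lipid genes 1 was higher early only, 1 at both times and 2 late only, and the lipid exporter gene Abca1 had changes of 0.26 and 1.47. Of 36 cell cycle and DNA replication genes, 1 was higher early only, 1 at both times and 1 lower late only, with medians of 0.06 and -0.33. The one lower was E2f2, a transcription factor of the G1 to S transition, with 22.6 and 21.0 FPKM at 1 h and 21.7 and 9.19 at 4 h.

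Of 44 interferon-stimulated genes, 1 was higher early only, 2 at both times, 1 late only, 1 lower early only and 1 lower late only, with medians of -0.02 and -0.05. Of 23 prostaglandin and leukotriene genes, 2 were higher at both times, 1 higher late only and 2 lower late only, among them Ltb4r1, a leukotriene B4 receptor, with 161 and 145 FPKM at 1 h and 157 and 66.4 at 4 h. Of 24 purine, itaconate and arginine genes, 2 were higher early only, 4 at both times and 3 late only. The 2 arginases differed in timing: Arg2 had changes of 1.26 and 0.24, and Arg1 of 0.29 and 2.22. Of 24 protease, inhibitor and matrix genes, 1 was higher early only (Serpinb2, the inhibitor PAI-2, with 738 and 2153 FPKM at 1 h and 354 and 623 at 4 h), 3 at both times and 2 late only.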
